A study of Mus musculus with 2 samples.

Results

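The Hox genes of the mouse colon stroma were described as a group, because together they record a cell's position along the body. Members were all genes of the count matrices whose symbol is Hoxa, Hoxb, Hoxc or Hoxd followed by a paralog number, which gave 39 of 33696 genes: 11 in cluster a, 10 in cluster b, 9 in cluster c and 9 in cluster d. The study compared colonic stromal cells of mice that carry floxed Il10ra alleles together with a Cre recombinase driven from Pdgfra (the Pdgfra-Cre library) with those of mice that carry the floxed Il10ra alleles alone (the control library). Il10ra encodes the ligand-binding chain of the interleukin-10 receptor, and Pdgfra a growth factor receptor that marks most gut fibroblasts. Mice were 6 months old, 2 of each genotype, and each genotype gave 1 library. Whether the mice of a genotype were pooled is not given in the sources used here. The sort kept live Podoplanin+ cells of the whole colon that lacked CD45 (leukocytes), CD31 (endothelium) and EpCAM (epithelium), so cells of the proximal and the distal colon are mixed in each library.

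Hox genes encode homeodomain transcription factors that are switched on in the embryo in the order in which they lie along their cluster. Genes with low paralog numbers, at one end of a cluster, are used from the hindbrain backwards, and genes with high numbers towards the tail. Fibroblasts and smooth muscle keep much of this pattern in adult life, and in mice Hoxa13 and Hoxd13 are needed for the hindgut to form normally. HOX proteins bind DNA together with partner proteins of the PBX and MEIS families.

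The Pdgfra-Cre library held 8627 barcodes and 66845139 UMIs and the control library 11380 barcodes and 76570611 UMIs, of which 8302 cells were kept in the Pdgfra-Cre library and 10657 in the control library, and 115 barcode sequences occurred in both. Levels are counts per 1000000 UMIs of a class (CPM). The kit reads the start of each transcript, so gene length does not scale the counts and CPM can be set beside each other between genes. Il10ra itself had 5 UMIs in fibroblasts of the Pdgfra-Cre library and 1 UMI in those of the control library, or 0.0812 CPM (0.0264 to 0.19) in the Pdgfra-Cre library and 0.0152 CPM (0.000386 to 0.0848) in the control library. These counts do not check the deletion, since the control level is near 0 and reads at the transcript start need not cover the floxed part. There is 1 library per genotype, so genotype and library cannot be told apart and no test between genotypes was possible. Bracketed values after a level or a ratio are exact 95% intervals that cover counting error only, and PCR copies were already collapsed by UMI.

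Cells were assigned by marker genes. In the Pdgfra-Cre library there were 7606 fibroblast-like cells, of which 621 were subepithelial-like, 2217 lamina propria-like and 3786 adventitial-like. In the control library there were 9500, of which 1743 were subepithelial-like, 3128 lamina propria-like and 2748 adventitial-like. The subepithelial score used markers of the cells under the epithelium, among them Sox6, Wnt5a and Bmp genes. The adventitial score used markers of the deeper layers, among them Pi16, Cd81, Grem1 and C3. Another 982 fibroblasts of the Pdgfra-Cre library and 1881 of the control library had scores of a pair of classes within 0.2 of each other and stayed in none. The median class score of subepithelial cells was 1.08 in the Pdgfra-Cre library and 1.19 in the control library, with the lamina propria score of the same cells at -0.16 (Pdgfra-Cre) and -0.11 (control) and the adventitial score at -0.73 (Pdgfra-Cre) and -0.72 (control). Pdgfra was highest in the subepithelial class, at 1199 CPM (Pdgfra-Cre) and 870.3 CPM (control), at 267 (Pdgfra-Cre) and 223 CPM (control) in the lamina propria and at 284 (Pdgfra-Cre) and 264 CPM (control) in the adventitial class. Beside fibroblasts, the Pdgfra-Cre library held 176 smooth muscle cells, 98 glia, 51 interstitial cells of Cajal, the pacemaker cells of the gut wall, and 43 cells of mesothelium, the outer lining. The control library held 679, 58, 45 and 58 cells of these types. Most adventitial cells lay in different clusters in the 2 libraries. In the Pdgfra-Cre library the cluster led by Npy1r and C3 held 1579 of them and the cluster led by Ptn and Myoc 690, against 253 and 138 in the control library. The Ptn and Myoc cluster had no listed marker of any class among its leading genes. The clusters led by Pi16 and Efhd1 and by Ccn5 and Stc2 held 263 and 708 in the Pdgfra-Cre library, against 1104 and 939 in the control library. Lamina propria cells were likewise mostly in the Cxcl13 and Cxcl9 cluster in the Pdgfra-Cre library, with 1696 cells against 210 in the control library, and in 2 clusters led by Stmn2 in the control library, with 35 and 109 cells in the Pdgfra-Cre library against 1344 and 1065 in the control library.

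Hox genes were read in every stromal class, at levels that differed several-fold between classes. Interstitial cells of Cajal had the highest summed level of the classes with at least 50 cells in a library, 1369 (Pdgfra-Cre) and 1333 CPM (control). Mesothelium followed with 519 (Pdgfra-Cre) and 531 CPM (control). Smooth muscle had 304 (Pdgfra-Cre) and 304 CPM (control), subepithelial fibroblasts 309.8 (Pdgfra-Cre) and 256 CPM (control), lamina propria fibroblasts 269 (Pdgfra-Cre) and 216 CPM (control), glia 232 (Pdgfra-Cre) and 203 CPM (control) and adventitial fibroblasts 232 (Pdgfra-Cre) and 169 CPM (control). The order of mesothelium and interstitial cells above the fibroblast classes was the same in both libraries. In the Pdgfra-Cre library the interval of smooth muscle, 274 to 336 CPM, overlapped that of subepithelial fibroblasts, 293 to 327 CPM. In the control library the interval of glia, 154 to 263 CPM, held the values of all 3 fibroblast classes. Of the 39 members, 36 had a UMI in fibroblasts of each library. Hoxb1 and Hoxc12 had none there in either library, and with no UMI among 61559593 of the Pdgfra-Cre and 65674744 of the control library the limit that a count of 0 allows is 0.0487 CPM in the Pdgfra-Cre and 0.0457 CPM in the control library. Hoxc13 had no UMI in the Pdgfra-Cre library and 1 in the control library, and Hoxb13 had 2 in the Pdgfra-Cre library and none in the control library. Members with at least 10 CPM in a class with 50 cells in either library numbered 28. The other 11 stayed below that in every such class.

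**Figure D1:**
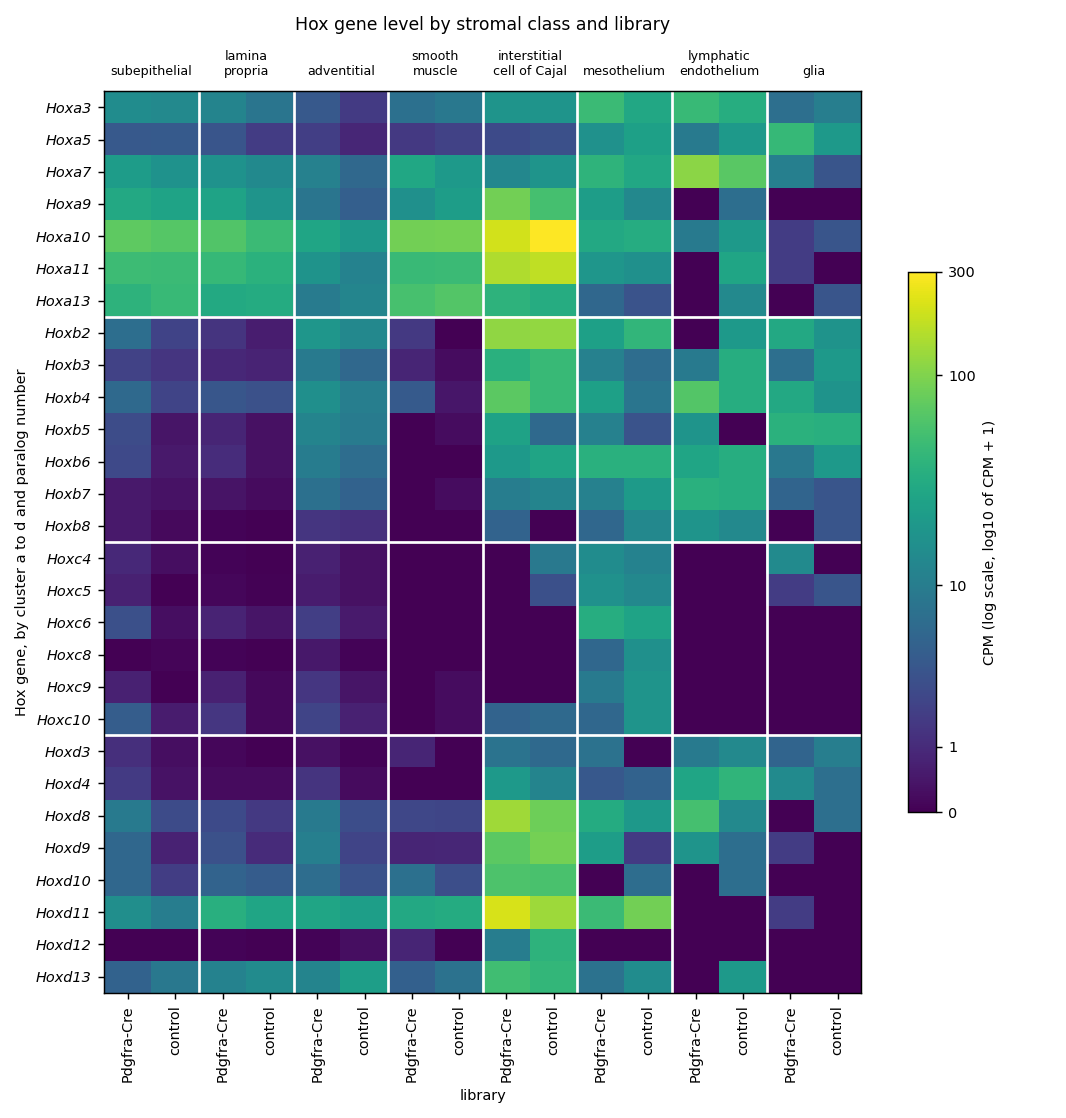
Level of the 28 Hox genes that reached 10 CPM (rows, by cluster and paralog number) in 8 stromal classes, the Pdgfra-Cre library left of the control library in each, as a colour on a log scale of CPM + 1. The members of cluster a with high numbers are bright in fibroblasts and smooth muscle, and Hoxa9 to Hoxa11 are brightest in interstitial cells of Cajal. Cluster b is bright in adventitial fibroblasts, glia, mesothelium, lymphatic endothelium and interstitial cells of Cajal, and cluster c is brightest in mesothelium.

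Each class used the clusters in its own proportion. Cluster a led in subepithelial fibroblasts, with 234 (Pdgfra-Cre) and 223 CPM (control), in lamina propria fibroblasts with 199.6 (Pdgfra-Cre) and 160.2 CPM (control) and in smooth muscle with 249 (Pdgfra-Cre) and 257 CPM (control). In adventitial fibroblasts it was lower, at 81.2 CPM (78.2 to 84.3) in the Pdgfra-Cre library and 57.8 CPM (54.3 to 61.4) in the control library. Cluster b ran the other way among fibroblasts. Its summed level was 75.1 CPM (72.2 to 78.1) in adventitial fibroblasts of the Pdgfra-Cre library and 52.8 CPM (49.5 to 56.3) in those of the control library, against 8.1 (Pdgfra-Cre) and 5.34 CPM (control) in lamina propria fibroblasts. The ratio of adventitial over lamina propria fibroblasts was 9.27 (7.81 to 11.1) in the Pdgfra-Cre library and 9.89 (8.19 to 12) in the control library. Smooth muscle had 9 UMIs of cluster b in the Pdgfra-Cre library and 5 in the control library, or 7.14 (Pdgfra-Cre) and 1.05 CPM (control), whereas glia had 119 (Pdgfra-Cre) and 119 CPM (control). Kit, the defining marker of interstitial cells of Cajal, was at 35.7 (Pdgfra-Cre) and 4.84 CPM (control) in the same smooth muscle cells, and its part in their cluster b values was not tested. Cluster c was low in fibroblasts, at 10.6 (Pdgfra-Cre) and 1.27 CPM (control) in the subepithelial, 3.58 (Pdgfra-Cre) and 0.781 CPM (control) in the lamina propria and 7.5 (Pdgfra-Cre) and 2.64 CPM (control) in the adventitial class, and reached 87.1 (Pdgfra-Cre) and 104 CPM (control) in mesothelium. Cluster d varied less among fibroblasts, with 44.2 (Pdgfra-Cre) and 24.8 CPM (control) in the subepithelial, 58.1 (Pdgfra-Cre) and 49.2 CPM (control) in the lamina propria and 68.1 (Pdgfra-Cre) and 55.3 CPM (control) in the adventitial class, and was highest in interstitial cells of Cajal with 558 (Pdgfra-Cre) and 460.5 CPM (control).

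**Figure D2:**
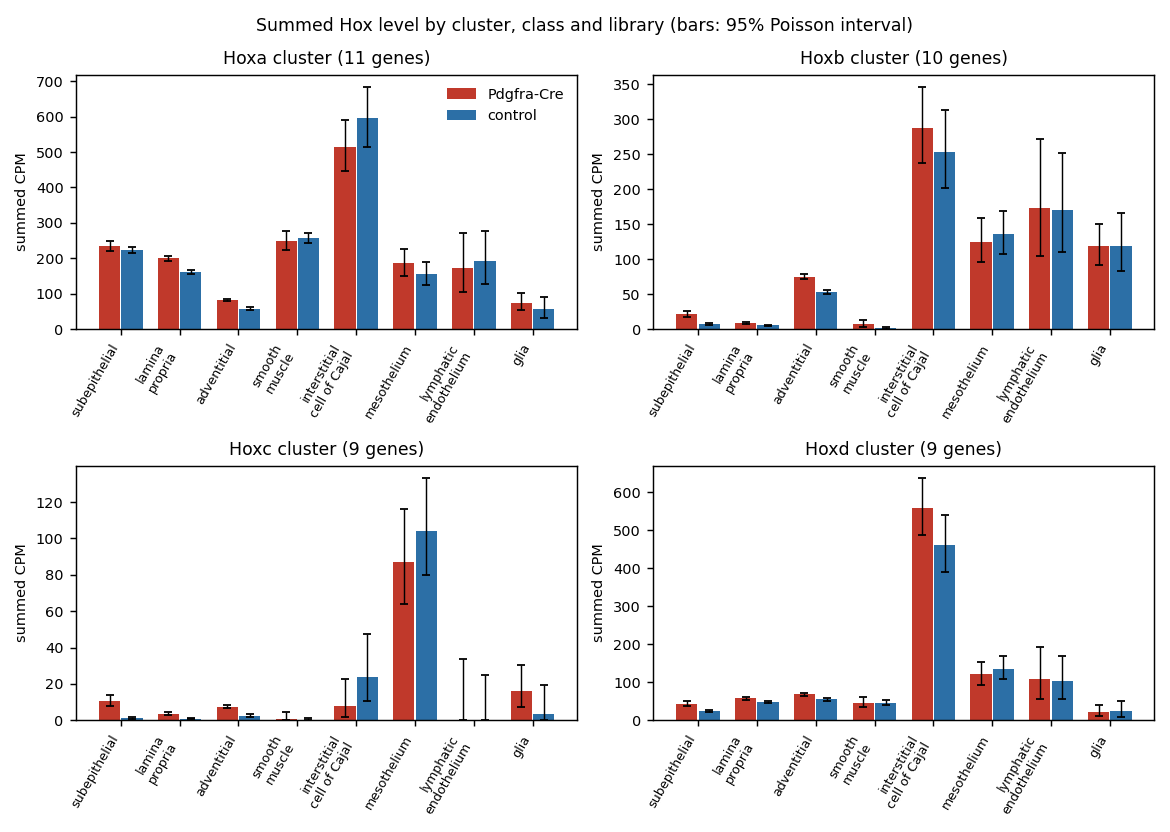
Summed CPM of each Hox cluster (panels) by class, Pdgfra-Cre bar left of control bar, with 95% Poisson intervals; 1 library per bar. In adventitial fibroblasts clusters a, b and d stand at similar heights (81.2, 75.1 and 68.1 CPM in the Pdgfra-Cre library), while cluster a alone dominates the subepithelial and lamina propria classes and smooth muscle.

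Within cluster a the paralogs from 9 upwards carried most of the signal in fibroblasts and muscle. Hoxa10, which in mice shapes the limb and the reproductive tract, was the most abundant member in fibroblasts. It had 72.1 CPM (64.3 to 80.5) in the Pdgfra-Cre library and 65.7 CPM (61.3 to 70.4) in the control library in subepithelial fibroblasts. In lamina propria fibroblasts it had 62.2 (Pdgfra-Cre) and 47.7 CPM (control), in adventitial fibroblasts 27.8 (Pdgfra-Cre) and 19.96 CPM (control) and in smooth muscle 88.1 (Pdgfra-Cre) and 89.3 CPM (control). Hoxa10 was thus lower in adventitial than in lamina propria fibroblasts of both libraries, at a ratio of 0.447 (0.408 to 0.488) in the Pdgfra-Cre and 0.419 (0.371 to 0.473) in the control library. Hoxa11, needed in mice together with Hoxd11 for the kidney and the forelimb, had 49.1 (Pdgfra-Cre) and 47.8 CPM (control) in subepithelial, 44.7 (Pdgfra-Cre) and 36.9 CPM (control) in lamina propria and 17.6 (Pdgfra-Cre) and 11.5 CPM (control) in adventitial fibroblasts. Reads of Hoxa11 and of the antisense transcript Hoxa11os that overlaps it cannot be told apart, because the strand rule of the counting is not given in the sources used here. Hoxa13, the last gene of the cluster and a gene of the hindgut, had 38.9 (Pdgfra-Cre) and 45.5 CPM (control) in subepithelial, 30.7 (Pdgfra-Cre) and 32.7 CPM (control) in lamina propria and 9.63 (Pdgfra-Cre) and 12.4 CPM (control) in adventitial fibroblasts, and 56.4 (Pdgfra-Cre) and 63.4 CPM (control) in smooth muscle. Its smooth muscle level was the highest of any class in both libraries, and it had 0 UMIs in glia of the Pdgfra-Cre library and 1 in those of the control library.

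Hoxa9 followed the same order, with 29.9 (Pdgfra-Cre) and 26.2 CPM (control) in subepithelial, 26 (Pdgfra-Cre) and 18 CPM (control) in lamina propria and 8.16 (Pdgfra-Cre) and 4.67 CPM (control) in adventitial fibroblasts. Hoxa7, of the middle of the cluster, kept that order, with 22.1 (Pdgfra-Cre) and 17.2 CPM (control), 17.4 (Pdgfra-Cre) and 13.8 CPM (control) and 11.3 (Pdgfra-Cre) and 5.91 CPM (control) in the same classes. Hoxa3 had 15 (Pdgfra-Cre) and 13.7 CPM (control) in subepithelial, 12.1 (Pdgfra-Cre) and 8.07 CPM (control) in lamina propria and 3.87 (Pdgfra-Cre) and 1.63 CPM (control) in adventitial fibroblasts, so it ranked the classes as Hoxa10 did. In the gene models Hoxa3 spans Hoxa4, Hoxa5 and Hoxa6 on the same strand, and counts of these 4 genes are uncertain for that reason. Hoxa3, Hoxa5 and Hoxa7 also overlap the antisense transcript Hoxaas3, whose reads cannot be told apart from theirs. Hoxa5, which in mice shapes the lung and the foregut, had at most 4.04 CPM in any fibroblast class. In glia it had 44.3 CPM (28.6 to 65.3) in the Pdgfra-Cre library and 21 CPM (7.72 to 45.8) in the control library. Mesothelium had 17 (Pdgfra-Cre) and 24.8 CPM (control) of Hoxa5, so a level above that of fibroblasts was not particular to glia.

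Cluster b separated adventitial fibroblasts from the other fibroblast classes. Hoxb2, which patterns the hindbrain in mice, had 18.9 CPM (17.4 to 20.4) in the Pdgfra-Cre library and 13.4 CPM (11.7 to 15.2) in the control library in adventitial fibroblasts. It had 6.91 (Pdgfra-Cre) and 2.14 CPM (control) in subepithelial and 1.35 (Pdgfra-Cre) and 0.564 CPM (control) in lamina propria fibroblasts, and the ratio of adventitial over lamina propria cells was 14 (9.23 to 22.2) in the Pdgfra-Cre and 23.7 (13.6 to 45.2) in the control library. Hoxb4, known from blood stem cells, had 16.1 (Pdgfra-Cre) and 10.4 CPM (control) in adventitial and 3.58 (Pdgfra-Cre) and 3.08 CPM (control) in lamina propria fibroblasts, the smallest such ratio of the members from Hoxb2 to Hoxb7. Hoxb5, which acts in the neural crest cells that build the gut's nervous system, had 12 (Pdgfra-Cre) and 9.79 CPM (control) in adventitial fibroblasts, 0.822 (Pdgfra-Cre) and 0.304 CPM (control) in lamina propria fibroblasts and 37.2 (Pdgfra-Cre) and 35.1 CPM (control) in glia. Hoxb3 had 9.36 (Pdgfra-Cre) and 5.91 CPM (control) in adventitial against 0.881 (Pdgfra-Cre) and 0.781 CPM (control) in lamina propria fibroblasts, Hoxb6 9.87 (Pdgfra-Cre) and 6.75 CPM (control) against 1.06 (Pdgfra-Cre) and 0.304 CPM (control) and Hoxb7 7.17 (Pdgfra-Cre) and 5.01 CPM (control) against 0.352 (Pdgfra-Cre) and 0.174 CPM (control). All 6 were higher in the adventitial class of each library. Hoxb8 was low, with 1.41 (Pdgfra-Cre) and 1.18 CPM (control) in adventitial fibroblasts, and Hoxb9 and Hoxb13 had at most 0.394 CPM in any fibroblast class. Hoxb2, Hoxb3, Hoxb5 and Hoxb6 overlap antisense transcripts, so some of their reads may belong to those, while Hoxb4 and Hoxb7 overlap no annotated gene.

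Members were also counted by size. The minimum level is set on the mean of both groups, so a member low in one can pass through the other, and these counts are descriptions. With 1 CPM added to both values and a mean of at least 1 CPM, a minimum chosen with the values in view, 9 of 21 members measured were at least 1.5-fold higher in adventitial than in lamina propria fibroblasts of the Pdgfra-Cre library, where 7.39% of all genes were. These were Hoxb2 to Hoxb7, Hoxc6, Hoxd8 and Hoxd9. In the control library 9 of 18 members were higher, where 6.86% of all genes were, namely Hoxb2 to Hoxb7, Hoxd8, Hoxd9 and Hoxd13. Lower by as much were 6 of 21 members in the Pdgfra-Cre library, against 24.4% of all genes, and 7 of 18 in the control library, against 21.7%, all of them in cluster a. Against subepithelial fibroblasts, 9 of 22 members were higher in adventitial cells of the Pdgfra-Cre library and 9 of 18 in those of the control library, where 8.97% (Pdgfra-Cre) and 9.02% (control) of all genes were. These 9 were Hoxb2 to Hoxb7, Hoxd9, Hoxd11 and Hoxd13 in both libraries. Lower were 8 of 22 in the Pdgfra-Cre library, against 37.9% of all genes, and 7 of 18 in the control library, against 32.3%, the members of cluster a and, in the Pdgfra-Cre library, Hoxc10. Subepithelial over lamina propria fibroblasts had 9 of 20 members higher in the Pdgfra-Cre library and 3 of 14 in the control library, against 15.6% (Pdgfra-Cre) and 11.8% (control) of all genes. Lower were 2 of 20 in the Pdgfra-Cre library, against 8.92%, and 3 of 14 in the control library, against 7.58%, with Hoxd11 and Hoxd13 in both.

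The little cluster b signal of subepithelial fibroblasts was concentrated in 1 cluster of cells. The cluster led by Kcnn3, a potassium channel gene, held 58 of the 93 cluster b UMIs of subepithelial fibroblasts in the Pdgfra-Cre library and 43 of 92 in the control library, or 62.4% (Pdgfra-Cre) and 46.7% (control), though it held 59 of 621 cells of the class in the Pdgfra-Cre library and 40 of 1743 in the control library. Among its own cells Hoxb2 was at 51.5 (Pdgfra-Cre) and 29.6 CPM (control), the highest of the 12 fibroblast clusters compared in the Pdgfra-Cre library. Not among these 12 was the cluster led by Stmn2 and Sfrp2, with 48 (Pdgfra-Cre) and 1980 cells (control). The cluster led by Cd36 and Nrg1, with 12 (Pdgfra-Cre) and 692 cells (control), was not among them either. The Kcnn3 cluster also held 58 of 138 cluster b UMIs of lamina propria fibroblasts in the Pdgfra-Cre library and 27 of 123 in the control library. In the cluster led by Sox6 and Procr, which held most subepithelial cells of both libraries, Hoxb2 was at 1.51 (Pdgfra-Cre) and 0.992 CPM (control). Without the Kcnn3 cluster and a cluster led by Epyc, whose leading genes include markers of other classes, cluster b in subepithelial fibroblasts was at 8.85 (Pdgfra-Cre) and 3.96 CPM (control), at a ratio of 2.23 (1.4 to 3.52), and in adventitial fibroblasts at 75.2 (Pdgfra-Cre) and 53.7 CPM (control).

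Cluster c, which in mice patterns the trunk skeleton and the spinal cord, was the least used. Its highest level among classes was in mesothelium, where Hoxc6 had 34.1 CPM (20.2 to 53.8) in the Pdgfra-Cre library and 26.4 CPM (15.1 to 43) in the control library. There Hoxc4 had 15.1 (Pdgfra-Cre) and 11.6 CPM (control) and Hoxc5 17 (Pdgfra-Cre) and 13.2 CPM (control), and Hoxc8, Hoxc9 and Hoxc10 had 5.68, 9.46 and 5.68 CPM in the Pdgfra-Cre library and 16.5, 18.2 and 18.2 CPM in the control library. Each of these mesothelial values rests on 3 to 18 UMIs. Glia had 8 UMIs of Hoxc4 in the Pdgfra-Cre library, or 14.2 CPM, and none in the control library, where a count of 0 allows at most 10.5 CPM. In fibroblasts as a whole Hoxc10 had 2.26 (Pdgfra-Cre) and 0.365 CPM (control), Hoxc6 1.67 (Pdgfra-Cre) and 0.365 CPM (control) and Hoxc9 1.12 (Pdgfra-Cre) and 0.152 CPM (control), and the 6 other members of the cluster were below 1 CPM in both libraries. In the gene models Hoxc5 spans Hoxc6, Hoxc8, Hoxc9 and Hoxc10 on the same strand, so counts within the cluster are uncertain between these genes.

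Cluster d was led by Hoxd11 and Hoxd13 in fibroblasts. Hoxd11, the partner of Hoxa11 in mouse kidney and forelimb, was its most abundant member, with 35.3 CPM (32.5 to 38.2) in the Pdgfra-Cre library and 27.5 CPM (25.4 to 29.7) in the control library in lamina propria fibroblasts. It had 27.6 (Pdgfra-Cre) and 23.3 CPM (control) in adventitial and 15.7 (Pdgfra-Cre) and 10.3 CPM (control) in subepithelial fibroblasts, so the subepithelial class was lowest in both libraries. Hoxd13, the last gene of the cluster, had 12.1 CPM (10.9 to 13.3) in the Pdgfra-Cre library and 23.3 CPM (21.1 to 25.6) in the control library in adventitial, 11.6 (Pdgfra-Cre) and 14.7 CPM (control) in lamina propria and 5.07 (Pdgfra-Cre) and 8.71 CPM (control) in subepithelial fibroblasts. Hoxd8, Hoxd9 and Hoxd10 had 9.39, 10.6 and 6.66 CPM in adventitial fibroblasts of the Pdgfra-Cre library, and only 2.87, 2.19 and 3.21 CPM in those of the control library. Hoxd8 and Hoxd4 overlap the antisense transcript Hoxd3os1, so some of their reads may belong to it. Hoxd9, Hoxd10, Hoxd11 and Hoxd13 overlap no annotated gene. Hoxd3 and Hoxd4 overlap each other and stayed below 2 CPM in every fibroblast class. Hoxd12 had 3 UMIs in all fibroblasts of the Pdgfra-Cre library and 4 in those of the control library but 10.3 (Pdgfra-Cre) and 39.1 CPM (control) in interstitial cells of Cajal, on 4 UMIs in the Pdgfra-Cre and 13 in the control library.

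The promoters of 4 genes are shown because the comparisons turn on them: Hoxd8 and Hoxd9 are neighbours that were higher in the Pdgfra-Cre library, while Hoxd13 of the same cluster and Hoxa13, its counterpart in cluster a, were lower in its adventitial fibroblasts. They are RefSeq promoters of build GRCm38.p6, 250 bases before to 50 after the gene start, read on the gene's strand, at chr2:74704365-74704664 (plus strand) for Hoxd8, chr2:74697513-74697812 (plus) for Hoxd9, chr2:74667975-74668274 (plus) for Hoxd13 and chr6:52260831-52261130 (minus) for Hoxa13. The counts were made on another build, GRCm39, so these positions are not those of the counting. Capitals mark matches to CCAAT or TATAAA on either strand.
Hoxd8: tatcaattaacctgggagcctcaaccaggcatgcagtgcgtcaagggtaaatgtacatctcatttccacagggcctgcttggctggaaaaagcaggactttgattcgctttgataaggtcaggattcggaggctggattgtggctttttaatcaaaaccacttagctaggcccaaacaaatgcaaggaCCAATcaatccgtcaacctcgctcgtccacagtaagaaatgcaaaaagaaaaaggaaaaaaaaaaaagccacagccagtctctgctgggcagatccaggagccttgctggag
Hoxd9: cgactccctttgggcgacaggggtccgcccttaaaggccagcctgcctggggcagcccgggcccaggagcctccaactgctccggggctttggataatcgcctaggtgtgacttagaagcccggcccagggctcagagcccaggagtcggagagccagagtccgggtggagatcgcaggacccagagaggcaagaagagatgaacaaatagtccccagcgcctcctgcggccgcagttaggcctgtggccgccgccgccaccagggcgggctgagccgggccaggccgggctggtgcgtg
Hoxd13: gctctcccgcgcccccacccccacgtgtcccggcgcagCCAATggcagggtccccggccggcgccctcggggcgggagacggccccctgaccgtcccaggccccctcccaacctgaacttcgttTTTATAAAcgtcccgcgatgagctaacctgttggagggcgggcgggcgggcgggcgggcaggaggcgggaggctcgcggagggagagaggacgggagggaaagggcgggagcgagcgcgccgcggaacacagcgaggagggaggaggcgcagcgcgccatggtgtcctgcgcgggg
Hoxa13: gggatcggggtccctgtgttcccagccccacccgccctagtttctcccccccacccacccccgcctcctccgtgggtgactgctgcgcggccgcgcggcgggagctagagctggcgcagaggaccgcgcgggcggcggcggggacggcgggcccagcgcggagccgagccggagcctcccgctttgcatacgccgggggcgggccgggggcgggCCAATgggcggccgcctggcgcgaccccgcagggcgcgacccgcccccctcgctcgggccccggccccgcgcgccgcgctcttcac
Hoxd8 and Hoxa13 each hold 1 CCAAT match, Hoxd13 holds 1 CCAAT match and 2 overlapping TATAAA matches on opposite strands, and Hoxd9 holds none of either. Of all 32851 promoters of that length, 37.4% held CCAAT and 13.6% TATAAA, and of the 24 promoters found for 22 of the members 15 and 4 did. A joint HOX and PBX motif written as TGATNNAT was in 8.85% of all promoters and in 4 of the 24, and a CDX motif written as TTTATNG in 10.9% and in 2 of the 24, in each case counted on both strands. None of the 4 promoters shown held either. The GC content was 46.7% for Hoxd8, 68.3% for Hoxd9, 74.3% for Hoxd13 and 81% for Hoxa13, against a median of 52.7% for all promoters.

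Summed over clusters, the share of posterior genes differed between classes. Paralogs 9 to 13 took 83.3% (Pdgfra-Cre) and 87.8% (control) of all Hox UMIs in smooth muscle, 82.2% (Pdgfra-Cre) and 85% (control) in lamina propria, 73.8% (Pdgfra-Cre) and 81.1% (control) in subepithelial and 53.7% (Pdgfra-Cre) and 60.9% (control) in adventitial fibroblasts. Mesothelium was split more evenly, with 32.8% (Pdgfra-Cre) and 41.1% (control) in paralogs 9 to 13 and 40.5% (Pdgfra-Cre) and 38.6% (control) in paralogs 5 to 8. Glia, which derive from neural crest cells that migrate in from the neck region of the embryo, were at the other end. They had 4 UMIs of paralogs 9 to 13 in the Pdgfra-Cre library and 2 in the control library, or 3.05% (Pdgfra-Cre) and 3.45% (control), and 50.4% (Pdgfra-Cre) and 48.3% (control) in paralogs 1 to 4. Within fibroblasts paralog group 13 alone, Hoxa13 and Hoxd13 together, took 11.8% (11.3% to 12.3%) of Hox UMIs in the Pdgfra-Cre library and 21.8% (21.1% to 22.4%) in the control library.

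In the control library, shares of single cells with a Hox UMI ranked the 3 fibroblast classes as the summed levels did, with and without thinning. In the Pdgfra-Cre library they did so only once depth was made equal. After each cell was thinned to 2000 UMIs, 38.01% of 7264 fibroblasts in the Pdgfra-Cre library and 32.4% of 8818 in the control library kept a Hox UMI, and 75.0% (Pdgfra-Cre) and 64.9% (control) had one without thinning. Without thinning the class shares were 75.7% (Pdgfra-Cre) and 72.7% (control) in subepithelial, 80.4% (Pdgfra-Cre) and 69.6% (control) in lamina propria and 73.6% (Pdgfra-Cre) and 56.2% (control) in adventitial fibroblasts. Lamina propria cells then led in the Pdgfra-Cre library. Thinning left out 342 shallower cells in the Pdgfra-Cre library and 682 in the control library. Thinned shares with a Hox UMI were 47.1% (Pdgfra-Cre) and 40% (control) in subepithelial, 41.4% (Pdgfra-Cre) and 33.3% (control) in lamina propria and 34.6% (Pdgfra-Cre) and 26.7% (control) in adventitial fibroblasts. Hoxa10 was then seen in 16.3% (Pdgfra-Cre) and 13.1% (control) of subepithelial fibroblasts, which without thinning were 36.6% (Pdgfra-Cre) and 34.3% (control). In adventitial fibroblasts it was seen in 5.07% (Pdgfra-Cre) and 4.14% (control), and without thinning in 19.9% (Pdgfra-Cre) and 11.4% (control). None of 97 thinned glia of the Pdgfra-Cre library and none of 57 of the control library had a Hoxa10 UMI. Without thinning 1 glial cell of each library had one. The thinned glial share is thus at most 3.73% in the Pdgfra-Cre and 6.27% in the control library (upper bounds of the exact 95% binomial interval). As a limit for free RNA in other classes, this bound assumes that free RNA enters all classes alike, which was not tested. Median depths before thinning were 5530 (Pdgfra-Cre) and 4700 UMIs (control) in glia and 8698.5 (Pdgfra-Cre) and 6511 UMIs (control) in adventitial fibroblasts. The adventitial Hoxa10 share of the control library lies inside the glial bound, so no expression is read from it alone. Hoxb2 was seen in 3.38% (Pdgfra-Cre) and 2.60% (control) of thinned adventitial fibroblasts and in 0.234% (Pdgfra-Cre) and 0.134% (control) of thinned lamina propria fibroblasts. Without thinning these shares were 13.8% (Pdgfra-Cre) and 7.68% (control) in adventitial and 0.902% (Pdgfra-Cre) and 0.416% (control) in lamina propria fibroblasts. Adventitial fibroblasts thus kept a higher Hoxb2 share than lamina propria fibroblasts at equal depth in both libraries. Hoxb5 was seen in 7.22% (Pdgfra-Cre) and 10.5% (control) of thinned glia, and in 17.3% (Pdgfra-Cre) and 17.2% (control) without thinning.

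Interstitial cells of Cajal combined both ends of the clusters. Their Hoxa10 level was 203 CPM (161 to 253) in the Pdgfra-Cre and 298 CPM (242 to 363) in the control library, and Hoxa11 had 152 (Pdgfra-Cre) and 172 CPM (control). Hoxb2 had 116 (Pdgfra-Cre) and 117 CPM (control), on 45 UMIs in the Pdgfra-Cre and 39 in the control library, against 1.59 CPM in smooth muscle of the Pdgfra-Cre library and no UMI in that of the control library, where a count of 0 allows at most 0.632 CPM. In cluster d, Hoxd8 had 131 (Pdgfra-Cre) and 84.3 CPM (control), Hoxd9 69.5 (Pdgfra-Cre) and 90.3 CPM (control), Hoxd10 59.2 (Pdgfra-Cre) and 57.2 CPM (control), Hoxd11 208 (Pdgfra-Cre) and 129 CPM (control) and Hoxd13 51.5 (Pdgfra-Cre) and 42.1 CPM (control). Over smooth muscle, the summed cluster d was higher by a ratio of 11.9 (8.9 to 16.2) in the Pdgfra-Cre library and 9.99 (8.07 to 12.3) in the control library, while Hoxa13 was not, at 0.685 (0.364 to 1.21) in the Pdgfra-Cre library and 0.522 (0.258 to 0.948) in the control library. Of members with a mean of at least 10 CPM, 16 of 17 in the Pdgfra-Cre library and 14 of 16 in the control library were at least 1.5-fold higher in these cells than in fibroblasts, against 38% (Pdgfra-Cre) and 36.6% (control) of all genes. A member that is low in fibroblasts passes the minimum only where the other class is high, as Hoxd4 did in the Pdgfra-Cre library with 20.6 CPM in interstitial cells of Cajal and 1.1 CPM in fibroblasts. This count and those for mesothelium and glia therefore support no difference. The 88.9% of 45 thinned cells in the Pdgfra-Cre library and 88.4% of 43 in the control library that kept a Hox UMI were the highest shares of any class.

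Mesothelium used all 4 clusters, with 185 (Pdgfra-Cre) and 155 CPM (control) for cluster a, 125 (Pdgfra-Cre) and 136 CPM (control) for cluster b, 87.1 (Pdgfra-Cre) and 104 CPM (control) for cluster c and 121 (Pdgfra-Cre) and 136 CPM (control) for cluster d. Against fibroblasts, 9 of 13 members in the Pdgfra-Cre library and 9 of 14 in the control library were at least 1.5-fold higher, where 22.9% (Pdgfra-Cre) and 23.9% (control) of all genes were. In glia 4 of 8 members in the Pdgfra-Cre library and 6 of 10 in the control library were that much higher than in fibroblasts, against 30% (Pdgfra-Cre) and 30.4% (control) of all genes, and 3 of 8 (Pdgfra-Cre) and 4 of 10 (control) that much lower, against 17.2% (Pdgfra-Cre) and 22.4% (control). The glial members with the most UMIs over both libraries were Hoxa5, Hoxb5, Hoxb2 and Hoxb4, with 25, 21, 17 and 17 UMIs in the Pdgfra-Cre library and 6, 10, 5 and 5 UMIs in the control library. Smooth muscle had 4 of 6 members higher than fibroblasts in the Pdgfra-Cre library and 3 of 7 in the control library, against 21.1% (Pdgfra-Cre) and 16.2% (control) of all genes, Hoxa10 and Hoxa13 among the most abundant.

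Between the libraries, Hox UMIs as a whole were a little more frequent in Pdgfra-Cre fibroblasts. The summed level was 252 (Pdgfra-Cre) and 208 CPM (control), a ratio of 1.21 (1.18 to 1.24). Over all fibroblasts the ratio was higher for anterior and middle genes: paralogs 1 to 4 were at 42.5 (Pdgfra-Cre) and 21.6 CPM (control), a ratio of 1.97 (1.85 to 2.1), and paralogs 5 to 8 at 46.8 (Pdgfra-Cre) and 24.6 CPM (control), a ratio of 1.91 (1.79 to 2.03), while paralogs 9 to 13 stood at 162 (Pdgfra-Cre) and 162 CPM (control). The libraries hold the fibroblast classes in different shares, 45.6% of kept cells being adventitial in the Pdgfra-Cre library and 25.8% in the control library, so values over all fibroblasts mix class makeup with levels inside classes. Within classes the summed ratio was 1.21 (1.13 to 1.29) in subepithelial, 1.25 (1.2 to 1.3) in lamina propria and 1.38 (1.32 to 1.44) in adventitial fibroblasts. Paralogs 1 to 4 were at 35.5 (Pdgfra-Cre) and 22.3 CPM (control) in subepithelial, 20.4 (Pdgfra-Cre) and 13.9 CPM (control) in lamina propria and 51.4 (Pdgfra-Cre) and 32.6 CPM (control) in adventitial fibroblasts. Paralogs 5 to 8 were at 45.8 (Pdgfra-Cre) and 26.1 CPM (control), 27.5 (Pdgfra-Cre) and 18.5 CPM (control) and 55.9 (Pdgfra-Cre) and 33.3 CPM (control) in the same classes. Inside the classes paralogs 9 to 13 were also higher. They were at 228 (Pdgfra-Cre) and 208 CPM (control) in subepithelial fibroblasts, a ratio of 1.1 (1.02 to 1.18). In lamina propria fibroblasts they were at 221 (Pdgfra-Cre) and 183 CPM (control), a ratio of 1.21 (1.16 to 1.26). In adventitial fibroblasts they were at 125 (Pdgfra-Cre) and 103 CPM (control), a ratio of 1.21 (1.15 to 1.28). The equal level over all fibroblasts thus did not hold in any of the 3 classes. In smooth muscle the summed ratio of all Hox genes was 0.999 (0.891 to 1.12).

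Few members with much signal differed by 1.5-fold in fibroblasts or smooth muscle. Among members with a mean of at least 10 CPM, none of 7 in fibroblasts was at least 1.5-fold higher in the Pdgfra-Cre library, where 3.84% of all genes were, and 1, Hoxa13 with 18.1 (Pdgfra-Cre) and 28.8 CPM (control), was that much lower, where 3.22% were. The shares over all genes were 4.8% higher and 2.06% lower in adventitial cells, where none of 8 members was higher and 1, Hoxd13, was lower. From 1 member nothing is read about the group. No member passed in either direction in lamina propria cells, of 8 measured against 5.16% and 2.85% of all genes, in subepithelial cells, of 7 against 6.54% and 3.68%, or in smooth muscle, of 6 against 7.33% and 5.94%. In the small classes more members passed, as more of all genes did. In glia 4 of 7 were higher and 2 lower, against 17.7% and 13.6% of all genes. In interstitial cells of Cajal 6 of 19 were higher and 1 lower, against 16.6% and 16.9%. In mesothelium 5 of 20 were higher and 7 lower, against 15% and 13.4%. With the minimum lowered to 1 CPM, which was chosen with the values in view, 11 of 20 members in fibroblasts were higher in the Pdgfra-Cre library, against 4.96% of all genes: Hoxb2 to Hoxb7, Hoxc6, Hoxc10, Hoxd8, Hoxd9 and Hoxd10. In adventitial fibroblasts 10 of 21 were, against 6.56%, in lamina propria fibroblasts 2 of 13, against 7.41%, in subepithelial fibroblasts 9 of 19, against 11%, and in smooth muscle 2 of 12, against 13.4%. The smooth muscle count is near the share over all genes. Lower by as much were Hoxa13 in fibroblasts as a whole, where 4.2% of all genes were, and Hoxd13 in adventitial and subepithelial cells, where 2.63% and 5.44% were, and no member in lamina propria cells or smooth muscle, where 4.09% and 10.2% were. The median log2 ratio of the members measured at this minimum was 0.58 in adventitial fibroblasts, against 0.02 over all genes measured there. The minimum is set on the mean of both libraries, so a member low in one can pass through the other. Hoxc10 did so in fibroblasts, at 2.26 (Pdgfra-Cre) and 0.365 CPM (control). Hoxd9 did so in mesothelium at the minimum of 10 CPM, with 22.7 CPM on 12 UMIs (Pdgfra-Cre) and 1.65 CPM on 1 UMI (control). The counts of the small classes, the counts at 1 CPM and this median are therefore descriptions and support no difference.

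**Figure D3:**
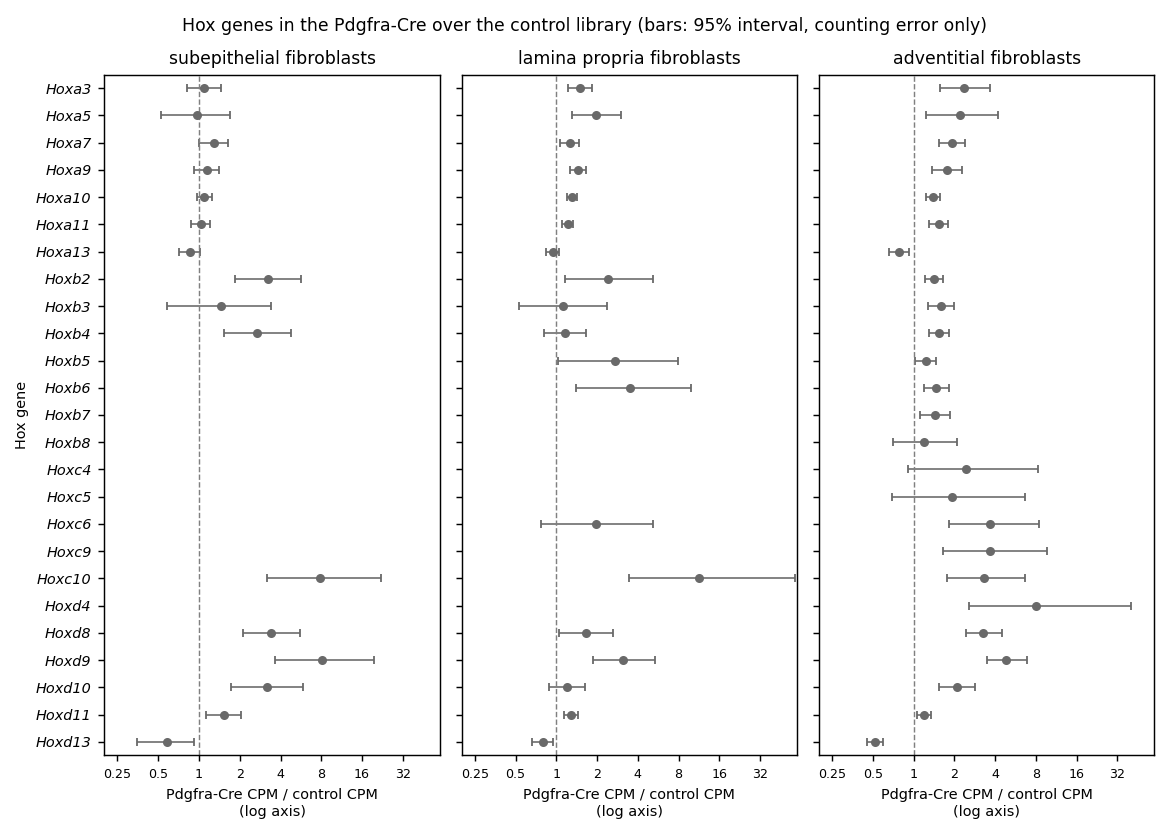
Ratio of Pdgfra-Cre over control CPM (log axis) for those of the same 28 Hox genes with at least 20 UMIs over both libraries and a UMI in each, in 3 fibroblast classes, with 95% intervals for counting error; 1 library per genotype. Hoxd8, Hoxd9 and Hoxc10 lie to the right of 1 and Hoxd13 to its left in all 3 classes, while Hoxa9 to Hoxa11 lie near 1 in the subepithelial class.

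Hoxd9 had the highest ratio of the members with at least 20 UMIs in the control library, both in adventitial and in lamina propria fibroblasts. In adventitial fibroblasts it was at 10.6 CPM (9.55 to 11.8) in the Pdgfra-Cre library and 2.19 CPM (1.56 to 3) in the control library, a ratio of 4.84 (3.47 to 6.93). In lamina propria fibroblasts it was at 3.11 (Pdgfra-Cre) and 0.998 CPM (control), a ratio of 3.12 (1.88 to 5.33), and in subepithelial fibroblasts at 5.76 (Pdgfra-Cre) and 0.713 CPM (control), a ratio of 8.08 (3.65 to 19.7). Its neighbour Hoxd8 was also higher, with ratios of 3.28 (2.43 to 4.49) in adventitial, 1.65 (1.04 to 2.64) in lamina propria and 3.42 (2.11 to 5.57) in subepithelial fibroblasts. In lamina propria fibroblasts Hoxa5 came between Hoxd9 and Hoxd8, at 3.52 (Pdgfra-Cre) and 1.78 CPM (control). Hoxd10 was at 6.66 (Pdgfra-Cre) and 3.21 CPM (control) in adventitial cells, a ratio of 2.08 (1.55 to 2.83), and Hoxd4 had 45 UMIs there in the Pdgfra-Cre library against 3 in the control library, a ratio of 8.01 (2.57 to 40.3). Without the Epyc and Kcnn3 clusters Hoxd9 was at 11 (Pdgfra-Cre) and 1.96 CPM (control) in adventitial cells, a ratio of 5.6 (3.89 to 8.32). Hoxd11, next to Hoxd10, had ratios of 1.19 (1.05 to 1.34) in adventitial, 1.28 (1.15 to 1.44) in lamina propria and 1.52 (1.12 to 2.06) in subepithelial cells.

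Hoxd13, at the end of the same cluster, went the other way. Its ratio was 0.52 (0.452 to 0.597) in adventitial, 0.792 (0.662 to 0.947) in lamina propria and 0.582 (0.35 to 0.925) in subepithelial fibroblasts. Without the Epyc and Kcnn3 clusters Hoxd13 was at 12.8 (Pdgfra-Cre) and 24 CPM (control) in adventitial cells, a ratio of 0.533 (0.461 to 0.615). Hoxa13 was lower in adventitial cells, at 0.779 (0.654 to 0.929), and its interval held 1 in lamina propria cells, at 0.94 (0.839 to 1.05), and in subepithelial cells, at 0.855 (0.716 to 1.02). Other members of cluster a were higher in Pdgfra-Cre adventitial cells, with ratios of 1.39 (1.23 to 1.58) for Hoxa10, 1.53 (1.3 to 1.8) for Hoxa11, 1.75 (1.36 to 2.26) for Hoxa9 and 1.91 (1.54 to 2.4) for Hoxa7. These class ratios mix cluster makeup with levels inside clusters. For Hoxa10 the ratio was 1.51 (1.17 to 1.95) in the Ccn5 cluster. Its interval held 1 in the Npy1r, Pi16 and Ptn clusters, at 1.15 (0.801 to 1.72), 1.21 (0.853 to 1.7) and 1.13 (0.863 to 1.49). For Hoxa9 it was 2.23 (1.05 to 4.59) in the Pi16 cluster, and the interval held 1 in the Ccn5, Npy1r and Ptn clusters. In subepithelial cells Hoxa10 and Hoxa11 were alike within counting error, at 1.1 (0.96 to 1.25) and 1.03 (0.875 to 1.2). In smooth muscle the intervals of Hoxa10, Hoxa11, Hoxa13 and Hoxd11 all held 1, with ratios of 0.987 (0.794 to 1.22), 0.984 (0.726 to 1.32), 0.889 (0.677 to 1.16) and 0.93 (0.634 to 1.33).

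Cluster b in adventitial fibroblasts was higher by a ratio of 1.42 (1.32 to 1.53), with the ratios of Hoxb2 to Hoxb7 between 1.23 (1.02 to 1.47) for Hoxb5 and 1.59 (1.27 to 2) for Hoxb3. Cluster c was higher by a ratio of 2.84 (2.07 to 3.96) there, at 7.5 (Pdgfra-Cre) and 2.64 CPM (control), and of 8.36 (4.65 to 15.8) in subepithelial cells, at 10.6 (Pdgfra-Cre) and 1.27 CPM (control). Markers of mesothelium, the class with the highest cluster c level, were also higher in these cells: all 9 had a UMI in adventitial cells of both libraries, with a summed 29.5 CPM in the Pdgfra-Cre library and 10.5 CPM in the control library, and in subepithelial cells 7 of the 9 had one in the Pdgfra-Cre library, with 20.04 CPM, and 8 in the control library, with 5.31 CPM. Msln, the defining one, had 1 UMI in adventitial cells of each library. Lamina propria cells had 2.47 (Pdgfra-Cre) and 1.48 CPM (control) of the same 9 markers and a cluster c ratio of 4.58 (2.67 to 8.24). Without the Epyc and Kcnn3 clusters, cluster c was at 6.64 (Pdgfra-Cre) and 2.02 CPM (control) in adventitial cells, a ratio of 3.28 (2.26 to 4.9). Lamina propria markers were also higher in adventitial cells of the Pdgfra-Cre library, at a summed 981.7 CPM against 480.3 CPM in the control library, and 9 leukocyte markers were at 20.4 (Pdgfra-Cre) and 5.06 CPM (control), with Ptprc at 0 UMIs in the Pdgfra-Cre and 1 UMI in the control library. The parts of the mesothelial, lamina propria and leukocyte markers in the Hox values of these classes were not tested.

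Levels also differed between the clusters of cells inside the classes. Of the 12 clusters compared, Hoxd9 was highest in the one led by Ptn and Myoc, with 32.9 (Pdgfra-Cre) and 16.2 CPM (control). In the Pdgfra-Cre library the one led by Adamdec1 and Nav2 followed, with 19 (Pdgfra-Cre) and 7.43 CPM (control). Inside each of these 2 clusters it was higher in the Pdgfra-Cre library, at ratios of 2.03 (1.36 to 3.13) and 2.56 (1.34 to 5.2). In the cluster led by Sox6 and Procr it was at 4.83 (Pdgfra-Cre) and 0.744 CPM (control), a ratio of 6.49 (2.41 to 20.2), and in the one led by Cxcl13 and Cxcl9 it was at 0.643 (Pdgfra-Cre) and 0.695 CPM (control). The Ptn and Myoc cluster held 863 fibroblasts of the Pdgfra-Cre library and 216 of the control library, so its share of cells and the level inside it both differed between the libraries. Hoxd8 was at 30.3 (Pdgfra-Cre) and 16.2 CPM (control) in this cluster, also its highest level of the 12 clusters.

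Hoxd13 was placed the other way round. It was lowest in the Adamdec1 cluster, with no UMI in 338 Pdgfra-Cre cells and 3 UMIs in 298 control cells, where the upper bound of the ratio is 1.96, and in the Ptn and Myoc cluster, at 1.29 (Pdgfra-Cre) and 3.61 CPM (control). The cluster led by Pi16 and Efhd1 had 11.1 (Pdgfra-Cre) and 30.9 CPM (control), a ratio of 0.361 (0.235 to 0.534), and the cluster led by Ccn5 and Stc2 15 (Pdgfra-Cre) and 23.6 CPM (control), a ratio of 0.634 (0.469 to 0.852). In the cluster led by Npy1r and C3 it was higher in the Pdgfra-Cre library, with 20.5 (Pdgfra-Cre) and 11.9 CPM (control) and a ratio of 1.72 (1.11 to 2.82). The lower Hoxd13 level of the adventitial class therefore did not hold in each of its clusters. Hoxa13 was lower in the Ptn and Myoc cluster, at a ratio of 0.374 (0.221 to 0.649), and alike within counting error in the Pi16, Ccn5 and Npy1r clusters. Hoxb2 was at 32.5 (Pdgfra-Cre) and 21.6 CPM (control) in the Ptn and Myoc cluster, 20.9 (Pdgfra-Cre) and 16.4 CPM (control) in the Ccn5 cluster, 13.2 (Pdgfra-Cre) and 14.8 CPM (control) in the Npy1r cluster and 11.9 (Pdgfra-Cre) and 10.7 CPM (control) in the Pi16 cluster, with the intervals of the last 3 ratios holding 1.

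**Figure D4:**
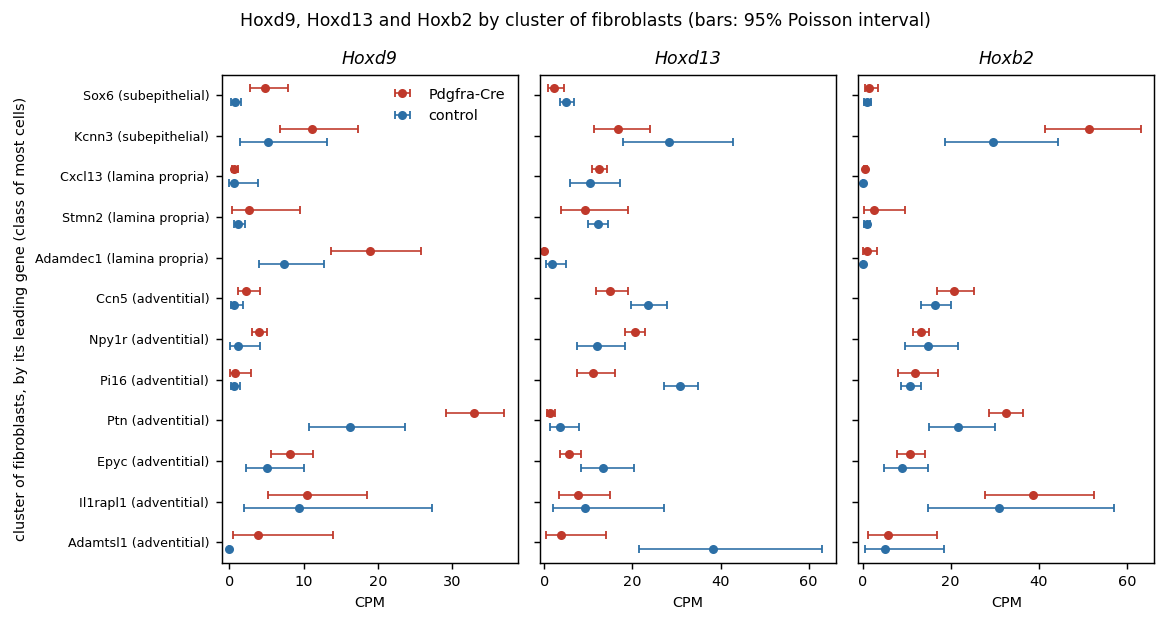
CPM of Hoxd9, Hoxd13 and Hoxb2 (panels) in 12 clusters of fibroblasts, named by their leading gene, with the Pdgfra-Cre point above the control point and 95% Poisson intervals; points at 0 carry no bar. Hoxd9 peaks in the Ptn and Myoc cluster at 32.9 (Pdgfra-Cre) and 16.2 CPM (control), where Hoxd13 is at 1.29 (Pdgfra-Cre) and 3.61 CPM (control).

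Within adventitial fibroblasts, Hoxd9 and Hoxd13 were rarely read in the same cells. In the Pdgfra-Cre library 279 cells had a Hoxd9 UMI and 3507 had none, with median depths of 11352 and 8327 UMIs. Hoxd13 was at 1.26 CPM in cells with and 13.2 CPM in cells without, a ratio of 0.0956 (0.0259 to 0.247), and Hoxa13 at 1.58 CPM in cells with and 10.5 CPM in cells without, a ratio of 0.151 (0.0487 to 0.356). The neighbours Hoxd8 and Hoxd10 were higher in the cells with Hoxd9, at ratios of 4.88 (3.83 to 6.2) and 4.87 (3.63 to 6.47), as were Hoxd4 at 8.34 (4.42 to 15.6) and Hoxc6 at 4.88 (2.74 to 8.46). Hoxd11, between Hoxd10 and Hoxd13 in the cluster, had a ratio of 1.71 (1.42 to 2.05), and Hoxb4 one of 1.23 (0.924 to 1.6). The control library had fewer than 100 adventitial cells with a Hoxd9 UMI, so this split was made in the Pdgfra-Cre library alone. In that library Hoxd9 and Hoxd13 were at 32.9 and 1.29 CPM in the Ptn and Myoc cluster. They were at 3.96 and 20.5 CPM in the Npy1r and C3 cluster. The ratios thus mix cluster makeup with what is read together inside a cluster, and the parts of makeup and of depth were not tested.

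Read from the other side, 333 adventitial cells of the Pdgfra-Cre library and 353 of the control library had a Hoxd13 UMI. Hoxd9 was at 0.92 CPM in cells with and 11.7 CPM in cells without a Hoxd13 UMI in the Pdgfra-Cre library, a ratio of 0.0788 (0.0162 to 0.232), and at 0.374 CPM in cells with and 2.52 CPM in cells without in the control library, a ratio of 0.149 (0.00367 to 0.879) that rests on 1 UMI in the cells with Hoxd13. Hoxa9 was lower in cells with Hoxd13, at ratios of 0.243 (0.0969 to 0.509) in the Pdgfra-Cre library and 0.286 (0.076 to 0.761) in the control library, and so was Hoxa10, at 0.438 (0.313 to 0.597) in the Pdgfra-Cre library and 0.657 (0.454 to 0.925) in the control library. Hoxd11 was higher in them, at 1.42 (1.17 to 1.72) in the Pdgfra-Cre library and 1.44 (1.12 to 1.83) in the control library, and Hoxa13 was alike, at 0.846 (0.548 to 1.26) in the Pdgfra-Cre library and 1.03 (0.694 to 1.49) in the control library. The directions of Hoxd9, Hoxa9, Hoxa10 and Hoxd11 were thus the same in both libraries. In lamina propria fibroblasts the intervals for Hoxa10 held 1, with ratios of 0.882 (0.698 to 1.1) in the Pdgfra-Cre library and 1.02 (0.831 to 1.23) in the control library for cells with over cells without a Hoxd13 UMI. Adventitial cells with a Hoxd13 UMI were deeper, with a median of 9399 UMIs against 8455 in cells without one in the Pdgfra-Cre library, and 7092 against 5942 in the control library. The parts of that depth and of cluster makeup in the ratios were not tested.

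**Figure D5:**
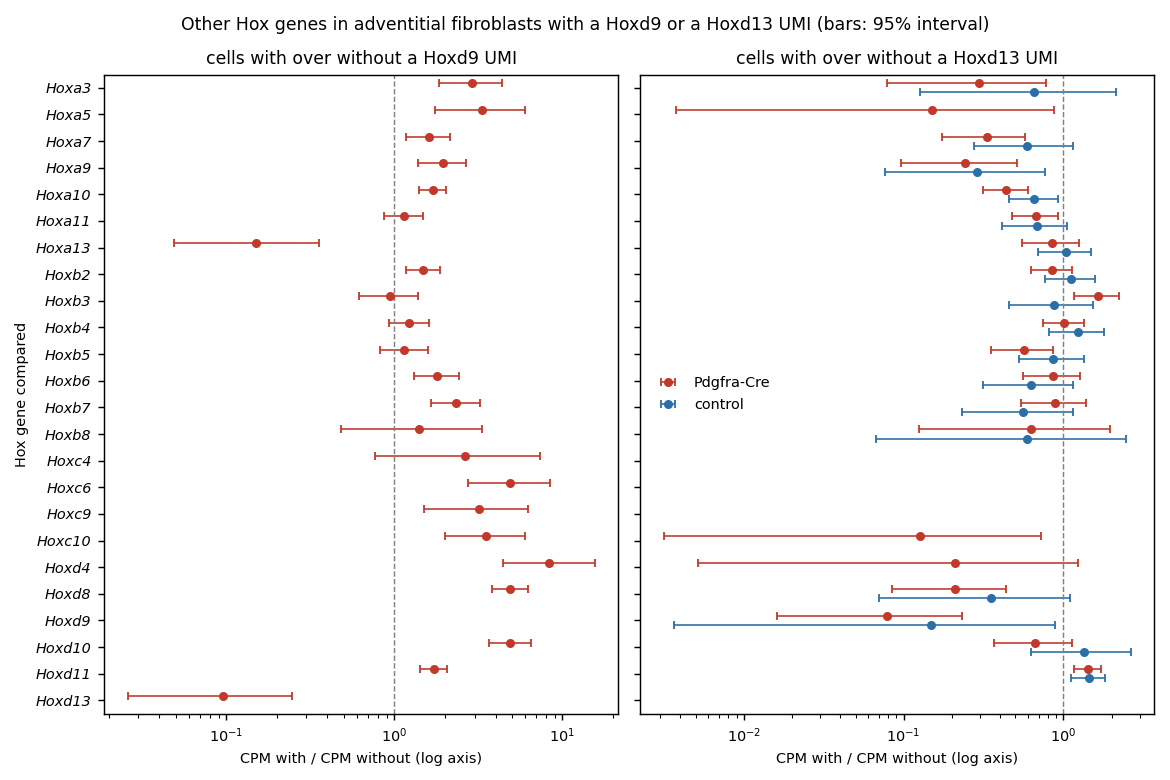
Ratio of CPM in adventitial fibroblasts with a Hoxd9 UMI (left, Pdgfra-Cre library only) or a Hoxd13 UMI (right, both libraries) over those without it, for the other Hox genes, on a log axis with 95% intervals; genes with no UMI in the cells with the anchor are left out. Hoxd8, Hoxd10 and Hoxd4 lie right of 1 and Hoxa13 and Hoxd13 left of it in the left panel, and Hoxd9 lies left of 1 for both libraries in the right panel.

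The partner genes of HOX factors were read in fibroblasts too. Of 9 cofactor genes, 8 had a mean of at least 10 CPM in fibroblasts, 1 was at least 1.5-fold higher in the Pdgfra-Cre library, where 3.84% of all genes were, and none lower, where 3.22% were, and their median log2 ratio was 0.19 against -0.04 for all genes measured. Meis2, the cofactor that was higher, was at 272 (Pdgfra-Cre) and 161 CPM (control), or 0.75 on the log2 scale, and Pbx3 at 57.0 (Pdgfra-Cre) and 38.4 CPM (control), or 0.56. Pknox1 and Pbx2 had the lowest log2 ratios, -0.41 and -0.28, with 23.8 and 13.6 CPM in the Pdgfra-Cre library and 31.98 and 16.7 CPM in the control library. In subepithelial fibroblasts 5 of 8 measured cofactors were at least 1.5-fold higher in the Pdgfra-Cre library, against 6.54% of all genes and with a median log2 ratio of 0.81 against 0.08 for all genes, and in lamina propria and in adventitial fibroblasts none of 8. In lamina propria fibroblasts 1 of 8 was that much lower, against 2.85% of all genes, Pknox1 at 21.7 (Pdgfra-Cre) and 33.3 CPM (control).

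Of 20 genes that set or keep Hox expression, 14 were measured in fibroblasts, 1 was higher, against the same shares over all genes, Kdm6b, a histone demethylase that removes the silencing mark of Polycomb, at 245 (Pdgfra-Cre) and 160.3 CPM (control), and none was lower. Kmt2a, whose product keeps Hox genes active, was at 92.5 (Pdgfra-Cre) and 95.5 CPM (control), and Bmi1, a Polycomb gene, at 14.3 (Pdgfra-Cre) and 10.8 CPM (control). Rnf2, also of a Polycomb complex, was at 36.1 (Pdgfra-Cre) and 42.1 CPM (control), with a log2 ratio of -0.22. By class, none of 15 measured was higher and 1 was lower in subepithelial fibroblasts, against 6.54% and 3.68% of all genes. In lamina propria fibroblasts 1 of 14 was higher and none lower, against 5.16% and 2.85%. In adventitial fibroblasts none of 14 passed in either direction, against 4.8% and 2.06%. Of 13 non-coding RNAs listed for the Hox clusters, 10 were in the matrices and 2 were measured, Hoxa11os at 38.04 (Pdgfra-Cre) and 38.6 CPM (control) and Hotairm1 at 26.3 (Pdgfra-Cre) and 31.2 CPM (control). Among 27 other transcription factors of position in gut mesenchyme, 11 were measured, 1 was at least 1.5-fold higher, against 3.84% of all genes, and 3 lower, against 3.22%, and the median log2 ratio was -0.50. That value mixes class makeup with levels, since inside classes the median was -0.25 in subepithelial, -0.02 in lamina propria and -0.02 in adventitial fibroblasts. In subepithelial fibroblasts none of 11 was higher and 4 were lower, Isl1, Osr1, Tbx3 and Sall1, against 6.54% and 3.68% of all genes. In lamina propria fibroblasts 2 of 10 were higher, Hand2 and Tbx2, and 1 lower, Tbx3, against 5.16% and 2.85%. In adventitial fibroblasts 1 of 9 was higher, Hand2, and 2 lower, Isl1 and Osr2, against 4.8% and 2.06%. Over all fibroblasts Hand2 was higher, at 18.5 (Pdgfra-Cre) and 7.22 CPM (control), and Osr2 followed at 23.0 (Pdgfra-Cre) and 19.3 CPM (control). Tbx3, Isl1 and Foxf2 were lower, Tbx3 at 6.81 (Pdgfra-Cre) and 27.3 CPM (control), Isl1 at 26.7 (Pdgfra-Cre) and 49.5 CPM (control) and Foxf2 at 31.2 (Pdgfra-Cre) and 52.0 CPM (control), while the most abundant, Tcf21 and Osr1, were at 774 and 140.0 CPM in the Pdgfra-Cre library and 1093 and 209 CPM in the control library.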

How the data were processed

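Stromal cells of 1 library per genotype had been read with a 10x 5' kit (version 2 chemistry), per the labels' protocols, and the authors deposited filtered matrices of UMI counts per gene and cell, made with Cell Ranger 8.0.1 and GRCm39, per the submitters' processing notes. The strand rule and the annotation release of the counting are not given in the sources used here. Column totals were the deposited counts, with a median of 7332 UMIs per barcode in the Pdgfra-Cre library and 6505 in the control library, and no column of another sample was present (0 unused).

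Cells with under 500 genes or over 10% mitochondrial UMIs were left out, 214 barcodes of the Pdgfra-Cre and 330 of the control library, and so were 111 (Pdgfra-Cre) and 393 (control) doublets called by Scrublet (scanpy 1.11.5, expected rate 8%, cutoffs 0.404 for Pdgfra-Cre and 0.326 for control). A cell joined a class with at least 50% of its markers and all defining ones. A fibroblast needed at least 50% of 9 markers, and its class a score margin of 0.2. Cells were clustered with Leiden (leidenalg 0.10.2, resolution 1) on 2000 variable genes, 30 components and 15 neighbours, with the Hox genes left out of the variable genes. Clusters led by Epyc and by Kcnn3 had markers of other classes among their leading genes, so values without them are given.

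UMIs were summed per class and library and divided by all UMIs of the class (Python 3.11.15, NumPy 2.4.6, SciPy 1.17.1, pandas 2.3.3). Levels carry exact Poisson intervals, ratios exact binomial ones and shares of cells Clopper-Pearson ones, at 95%. With 1 library per genotype there was no test. A member was counted as higher or lower at 1.5-fold with 1 CPM added to both values and a mean of at least 10 CPM, beside the same share over all genes. A count of 0 was read as allowing up to 3 counts. Members with at least 10 CPM in a class of at least 50 cells in either library were named, 28 in all. Of each gene list the 2 most abundant genes and the 2 with the highest and the 2 with the lowest ratios were named, and genes that passed the fold besides; some of the genes so chosen are not reported here. The members and the gene lists were chosen with earlier results of these data known, and the defining markers, the scoring and the splits by Hoxd9 and Hoxd13 UMIs were settled after the data were seen. The counting steps were tested on simulated counts. Alternatives were looser cell filters, doublets kept, clusters in place of marker classes, other scalings and weightings of classes and cells, other minimum levels, pseudocounts and folds, and thinning to 1000 UMIs.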

Additional observations from a re-analysis of the deposited data

Results flagged for a closer look

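Hoxd13 stood out because its ratio of Pdgfra-Cre over control ran in opposite directions in different clusters of fibroblasts. It was 1.72 in the cluster led by Npy1r and C3, whose interval of 1.11 to 2.82 lies above 1. It was 0.634 in the cluster led by Ccn5 and Stc2, 0.361 in that led by Pi16 and Efhd1, 0.437 in that led by Sox6 and Procr, 0.417 in that led by Epyc and Ptx3 and 0.101 in that led by Adamtsl1 and Neat1, with intervals below 1 that cover counting error only. With 1 library per genotype the difference between clusters was not tested.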

How the results depend on the processing

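No paired analysis was possible because each genotype has 1 library. The log2 ratio of summed Hox CPM in fibroblasts, 0.27, came to 0.32 with scaling by the median of ratios, 0.34 with the classes weighted alike and 0.31 as a mean of per-cell CPM. The count of members at least 1.5-fold higher in fibroblasts, 0 at a minimum of 10 CPM, was 13 with no minimum and 11 with a minimum of 1 CPM, the last chosen after the data were seen. The count lower, 1, was 0 with a mean of per-cell CPM, a minimum of 50 CPM, 10 CPM added or a 2-fold threshold, so the single call for Hoxa13 rests on these settings. The share of Hox UMIs in paralog group 13 in the Pdgfra-Cre library, 11.8%, was 13.3% with the classes weighted alike and 12.3% without the Epyc and Kcnn3 clusters. The subepithelial Hox level of the Pdgfra-Cre library, 309.8 CPM, was 340.9 CPM with clusters in place of marker classes. The other 95 values of these results moved by less than their counting intervals, or, for counts, by less than 1.5-fold. For single genes and shares of cells, 92 values held and 16 moved. With 1 CPM added to both values, as for these alternatives but the one with 10 CPM, the log2 ratio in adventitial cells was 1.86 for Hoxd9 and -0.89 for Hoxd13. Under the alternatives it ranged from 0.76 to 2.02 for Hoxd9 and from -0.89 to -0.59 for Hoxd13, while that of Hoxa13 in lamina propria cells, from -0.08 to 0.003, crossed 0. Hoxd9 had 1.04 in lamina propria cells and 1.98 in subepithelial cells and moved in 4 of 8 alternatives in lamina propria, from 0.25 to 1.09, and in 3 of 8 in subepithelial cells, from 0.56 to 2.20, with the lowest value in each class at 10 CPM added. Depth limits the classes with few cells: 1 UMI was worth 1.77 CPM in glia of the Pdgfra-Cre library and 3.51 CPM in those of the control library.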

Other observations

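Lymphatic endothelium was a class of 41 cells in the Pdgfra-Cre library and 44 in the control library, under the 50 cells set for naming members, and 50 Hox UMIs were read in it in the Pdgfra-Cre and 68 in the control library. The sort was to remove CD31+ cells. The summed level of the class was 457 (Pdgfra-Cre) and 464 CPM (control), of which cluster a held 174 (Pdgfra-Cre) and 191 CPM (control), cluster b 174 (Pdgfra-Cre) and 170.5 CPM (control) and cluster d 109.7 (Pdgfra-Cre) and 102 CPM (control), while cluster c had no UMI in either library, which allows up to 27.4 (Pdgfra-Cre) and 20.5 CPM (control). Paralogs 9 to 13 took 6% (Pdgfra-Cre) and 22.1% (control) of the Hox UMIs of the class. Hoxb4 was at 64 (Pdgfra-Cre) and 34.1 CPM (control), against 11.9 (Pdgfra-Cre) and 5.13 CPM (control) in fibroblasts. Hoxa7 was at 109.7 (Pdgfra-Cre) and 68.2 CPM (control), against 14 (Pdgfra-Cre) and 11.8 CPM (control) in fibroblasts. Of members with a mean of at least 10 CPM, 9 of 12 in the Pdgfra-Cre library and 9 of 15 in the control library were at least 1.5-fold higher than in fibroblasts, against 40.1% (Pdgfra-Cre) and 37.7% (control) of all genes. A member low in fibroblasts passes this minimum only where the lymphatic class is high. Hoxd4 did so in the Pdgfra-Cre library, with 27.4 CPM on 3 UMIs against 1.1 CPM in fibroblasts. This count therefore supports no difference.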
